A study of Mus musculus with 8 samples.

Results

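The genes described here are 9 transcription factors and regulators that set T cell fate: Tbx21 (T-bet), Eomes, Runx3, Zbtb7b (ThPOK), Gata3, Zbtb16 (PLZF), Prdm1 (Blimp-1), Id2 and Bcl6. They were chosen by symbol from the 32285 features of the single-cell libraries, and all 9 were found. Their Ensembl identifiers in the files are ENSMUSG00000001444 (Tbx21), ENSMUSG00000032446 (Eomes), ENSMUSG00000070691 (Runx3), ENSMUSG00000028042 (Zbtb7b), ENSMUSG00000015619 (Gata3), ENSMUSG00000066687 (Zbtb16), ENSMUSG00000038151 (Prdm1), ENSMUSG00000020644 (Id2) and ENSMUSG00000022508 (Bcl6). Their unique molecular identifiers (UMIs, each standing for 1 captured RNA molecule) were read in 70138 T cells, defined as cells with at least 2 UMIs over Cd3d, Cd3e, Cd3g, Trac, Trbc1 and Trbc2. Of these, 27462 cells had Cd4 without Cd8a or Cd8b1, 21897 had Cd8a or Cd8b1 without Cd4, 17662 had none of these transcripts, 3117 had both, and 2556 had Foxp3. To keep the classes apart, CD4, CD8 and double-negative (DN) cells are given without Foxp3 UMIs (26341, 21642 and 16628 cells), and the Foxp3 class holds the 1121 Foxp3-positive cells with Cd4 alone.

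The T cells came from the pancreas of NOD mice, an inbred strain that develops autoimmune diabetes spontaneously, and were sorted as CD45+ CD3+ TCRβ+. There were 8 libraries, each from cells that were frozen after the sort. An active library came from diabetic mice with blood glucose above 600 mg/dl and an onset library from new-onset mice at 250 mg/dl, both harvested on day 1. New-onset mice at 200 to 300 mg/dl received daily either PPCA, which is nutlin-3 (50 mg/kg, an inhibitor of MDM2 that raises p53) with MK-1775 (25 mg/kg, an inhibitor of the cell cycle kinase WEE1), or a vehicle of ethanol, Tween 20 and PEG300. Doses were given on days 1, 2 and 3, mice were taken the day after their last dose, and each arm has 1 library labelled day 2, 1 labelled day 3 and 1 labelled day 4. All mice were labelled female and 3 to 4 months old (3 to 5 months in the protocol). The labels do not give the number of mice per library, so p-values here measure the spread between libraries.

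In T cells, Runx3 and Zbtb7b stand on opposite sides of the choice between the cytotoxic CD8 lineage and the helper CD4 lineage, each limiting the other's program. Tbx21 and Eomes are T-box factors of type 1 and cytotoxic cells, Gata3 acts in helper fate and type 2 cells, and Zbtb16 drives innate-like T cells. Prdm1 and Bcl6 oppose each other in terminal effector and follicular helper cells, and Id2 blocks E proteins such as Tcf3 and Tcf12 and favours effector cells.

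The reference promoters of the opposed pair are shown because RUNX factors are known to repress Zbtb7b in CD8 cells. They are RefSeq sequences of build GRCm38.p6 (C57BL/6J, not NOD), from 250 bases before to 50 bases after each annotated start, 5′ to 3′ on the gene's strand. Capitals mark the letters TGTGGT, a RUNX core motif searched on both strands, which reads ACCACA where it lies on the other strand.
Runx3, chr4:135120395-135120694, plus strand: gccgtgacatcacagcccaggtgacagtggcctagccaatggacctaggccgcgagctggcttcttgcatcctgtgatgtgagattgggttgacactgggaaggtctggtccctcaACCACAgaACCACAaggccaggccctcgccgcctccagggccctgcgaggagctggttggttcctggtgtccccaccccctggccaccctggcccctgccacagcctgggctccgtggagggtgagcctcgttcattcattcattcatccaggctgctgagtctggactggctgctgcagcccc
Runx3, chr4:135152295-135152594, plus strand: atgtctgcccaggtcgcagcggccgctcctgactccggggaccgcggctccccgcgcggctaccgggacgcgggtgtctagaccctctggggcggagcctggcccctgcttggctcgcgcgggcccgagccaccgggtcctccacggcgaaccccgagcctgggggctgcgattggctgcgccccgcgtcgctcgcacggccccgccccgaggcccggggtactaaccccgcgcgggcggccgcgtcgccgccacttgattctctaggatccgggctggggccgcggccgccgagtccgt
Zbtb7b, chr3:89393329-89393628, minus strand: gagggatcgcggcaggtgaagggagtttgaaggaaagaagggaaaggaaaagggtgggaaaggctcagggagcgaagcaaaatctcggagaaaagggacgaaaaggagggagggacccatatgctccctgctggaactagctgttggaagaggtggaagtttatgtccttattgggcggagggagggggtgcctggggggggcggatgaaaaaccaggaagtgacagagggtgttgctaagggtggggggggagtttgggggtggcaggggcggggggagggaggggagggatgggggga
Zbtb7b, chr3:89387622-89387921, minus strand: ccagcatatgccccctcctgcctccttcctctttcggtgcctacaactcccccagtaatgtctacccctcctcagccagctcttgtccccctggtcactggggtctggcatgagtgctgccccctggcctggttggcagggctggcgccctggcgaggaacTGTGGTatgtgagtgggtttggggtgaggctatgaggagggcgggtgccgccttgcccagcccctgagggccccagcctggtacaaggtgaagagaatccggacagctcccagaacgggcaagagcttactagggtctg
The motif occurred at 134 and 126 bases before the first Runx3 start and 89 bases before the second Zbtb7b start. Promoters of 8 members were matched, 11 windows in all, and Zbtb16 was not matched. The RUNX letters lay in 2 of the 11 windows against 16.8% of 32851 promoters of the same length. The E-box letters CANNTG, which E proteins bind, lay in 9 of 11 windows against 72.3% of all. The letters AGATAA of GATA factors (11.2% of all) and AGGTGTGA of T-box factors (1.28% of all) lay in none of the 11. A match describes the sequence only.

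Some measured facts bear on all results. Libraries held 36934580 to 67603740 UMIs and 6145 to 11520 T cells, with a median of 3851 to 6465 UMIs per kept cell, and any pair of libraries shared 14 to 41 cell barcodes (0.199% to 0.431% of the smaller). The female label did not hold for all of them. The active, onset, day 2 PPCA and day 4 vehicle libraries had Xist at 417 to 617 counts per 1000000 UMIs (CPM), while the other 4 had Y-linked transcripts summing to 186 to 272 CPM, so that vehicle and PPCA have 1 Xist and 2 Y-linked libraries each and differ in this on days 2 and 4. Values in the 4 Xist and the 4 Y-linked libraries are given below where a call between classes or with a factor's UMI differs. The active and onset libraries lie in the Xist set only. Sex therefore cannot be told apart from disease stage, arm or day between these sets. The DN share of T cells ran from 13.9% in the active library to 33.2% in the day 4 PPCA library. In DN cells the median UMIs were 3528 to 5549 per library, against 3855 to 6172 in CD4 cells, and a cell whose Cd4 RNA was not captured cannot be told apart from a true DN cell. Foxp3 UMIs also lay in 19 to 51 CD8-gate cells and 63 to 191 DN cells per library. Genes overlapping Gata3, Zbtb7b, Runx3, Eomes and Bcl6 on the opposite strand are annotated, and 9230102O04Rik overlaps Gata3 on its own strand. The strand setting of the counting is not given in the sources used here, so reads of these genes cannot be told apart.

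CD8 cells differed from CD4 cells in 6 of the 9 factors. Runx3, Eomes, Tbx21 and Id2 were higher in CD8 cells, Zbtb7b and Gata3 were lower, and the 8 libraries of either class did not overlap for any of the 6. The share of all genes that separate in this way was not counted, here or below. A lack of overlap therefore only describes these values. The test was edgeR's quasi-likelihood test on the UMI sums of each class in each library, with the library as a block and Benjamini-Hochberg adjustment over all 11841 genes. It called 45.2% of all genes (22.9% higher and 22.3% lower in CD8 cells), so that a call by itself is common in this comparison.

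Runx3, the CD8 lineage factor, stood at 212 CPM in the lowest CD8 library, 270 at the median and 331 in the highest. In CD4 cells the lowest, median and highest libraries stood at 64.6, 86.2 and 102 CPM. The log2 fold change was 1.74 ± 0.046 (SE, n = 8 libraries; edgeR adjusted p = 2.85e-27). The CD4 class still held over 60 CPM in every library, and what part of this came from free RNA in the droplets was not measured.

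Zbtb7b, the helper lineage factor, was the reverse. CD4 libraries ran from 26.0 over a median of 53.7 to 74.2 CPM, and CD8 libraries from 1.86 over 3.69 to 7.17 CPM. The log2 fold change was -3.63 ± 0.071 (SE, n = 8; edgeR adjusted p = 5.1e-31). The day 4 PPCA library was the lowest and the day 2 vehicle library the highest in both classes.

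Eomes, which sustains cytotoxic and memory CD8 cells, had 43.3, 50.4 and 95.8 CPM in the lowest, median and highest CD8 library, and 2.04, 4.45 and 6.37 CPM in CD4 cells. Its log2 fold change was 3.87 ± 0.13 (SE, n = 8; edgeR adjusted p = 2.76e-24), the largest of the 9. Tbx21, its T-box relative, was scarcer, at 5.16, 8.02 and 19.1 CPM in CD8 cells and 0.712, 1.71 and 3.33 CPM in CD4 cells, with a log2 fold change of 2.51 ± 0.14 (SE, n = 8; edgeR adjusted p = 7.6e-18). For both, the day 2 vehicle library was the highest of the CD8 sums.

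Id2 had 198, 215 and 339 CPM in the lowest, median and highest CD8 library and 83.3, 124 and 180 CPM in CD4 cells (log2 fold change 0.90 ± 0.080, n = 8; edgeR adjusted p = 6.32e-12). The highest CD8 value was that of the onset library. Gata3 had 25.3, 34.6 and 47.0 CPM in CD8 cells and 54.1, 65.9 and 73.8 CPM in CD4 cells (log2 fold change -0.89 ± 0.049, n = 8; edgeR adjusted p = 1.53e-17). Gata3 thus stayed above the level of Zbtb7b in CD8 cells.

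The 3 other factors did not pass. Prdm1, a repressor that acts in terminal effector cells, was higher in CD8 cells in 4 of 8 libraries (log2 fold change 0.28 ± 0.17; edgeR adjusted p = 0.173). Bcl6, its antagonist, was higher in 3 of 8 (log2 fold change -0.12 ± 0.099; edgeR adjusted p = 0.329). Zbtb16 had 31 UMIs in all CD8 cells and 27 in all CD4 cells (log2 fold change 0.35 ± 0.49; edgeR adjusted p = 0.599).

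**Figure D1:**
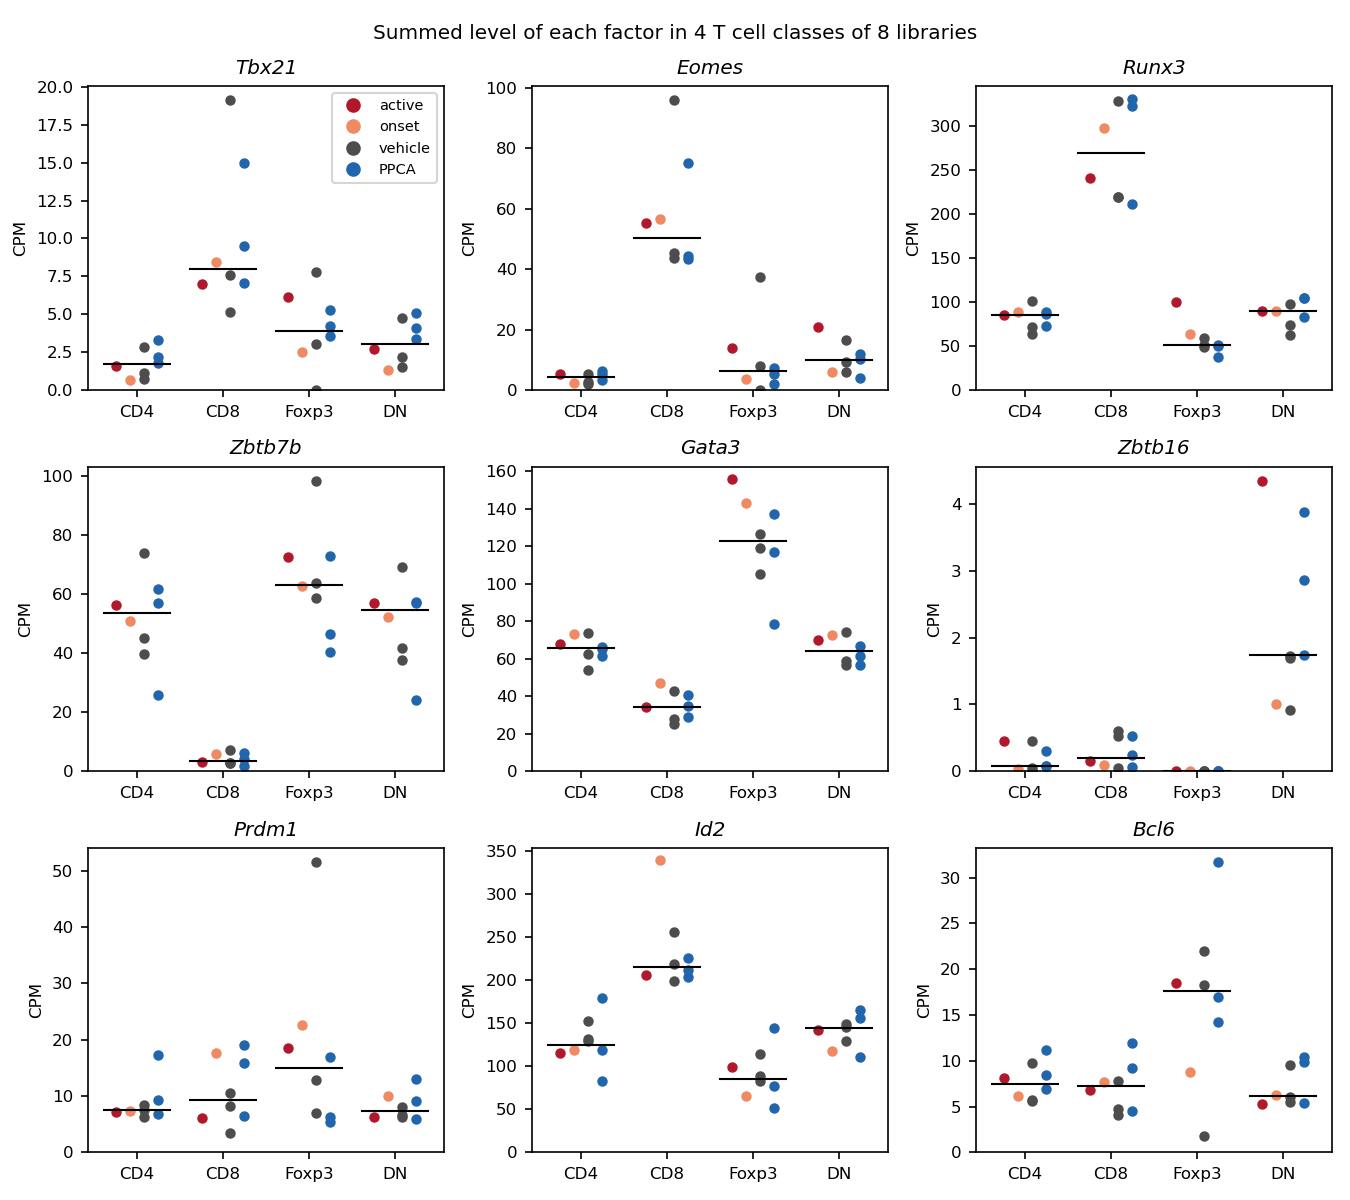
Summed level of each of the 9 factors (y axis, CPM) in CD4, CD8, Foxp3 and double-negative (DN) cells, 1 point per library, coloured by group, with a bar at the median of the 8 libraries. The CD4 and CD8 points do not overlap for Tbx21, Eomes, Runx3, Zbtb7b, Gata3 and Id2, and Zbtb16 lies above the CD4 and CD8 classes in DN cells.

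The 6 calls between CD8 and CD4 cells also held in the 4 Xist libraries and in the 4 Y-linked libraries alone. Among these 6, Id2 differed most between these sets, with a log2 fold change of 1.15 in the Xist libraries and 0.63 in the Y-linked ones, which was not tested. Prdm1 passed in the Xist libraries (log2 fold change 0.61, edgeR adjusted p = 0.0164) but not in the Y-linked ones (-0.06, adjusted p = 0.833).

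Other genes of these programs were read from the pathway lists. Of the 13 cytotoxic genes listed, all 13 were higher in CD8 cells, with a median log2 fold change of 3.44 against 0.00 over all genes. They included Gzmk, a granzyme (41.9 against 4.10 CPM, log2 fold change 3.44 ± 0.19), and Itgae, the integrin of tissue-resident cells (50.9 against 1.12 CPM, 5.57 ± 0.13). Of 11 type 1 genes tested, 10 were higher, among them the chemokine Ccl5 (4.28 ± 0.19) and the granule protein Nkg7 (4.55 ± 0.13). All 8 helper genes were lower, led by Cd40lg, the ligand by which helper cells stimulate B cells (5.79 against 95.8 CPM, -4.08 ± 0.078). Of 7 type 2 genes tested, 6 were lower, including the factor Maf (7.38 against 43.5 CPM). The follicular helper list of Bcl6 split, with 4 of 10 tested higher and 5 lower. Of 11 innate-like and gamma-delta genes tested 8 were higher and 2 lower, although Zbtb16 itself did not pass. Of the 20 partners and relatives of the factors, 5 were higher, including Zeb2, Runx2, Tcf12 and Tcf3, and 10 lower, among them Runx1 and Bach2. Markers of other cells moved with these differences. Those of NK and innate lymphoid cells summed to 1.99 to 8.38 CPM in CD8 and 0 to 2.30 CPM in CD4 libraries, with Gata2 and Il22 at 0 in CD8 cells. The 6 B and myeloid genes of the cell filter summed to 10.0 to 18.3 against 1.86 to 3.45 CPM, and endothelial and stromal markers to 41.6 to 61.4 against 72.9 to 115.7 CPM. Their part in these results was not tested. Genes called in this comparison were higher in CD8 cells in 50.7% of cases, and in 39.3% when library totals alone set the scale.

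The Foxp3 class, small at 100 to 200 cells per library, was set against CD4 cells in the same fit, which called 33.2% of all genes (15.5% higher and 17.7% lower). Gata3 and Bcl6 were higher and Runx3 and Id2 lower in Foxp3 cells, with Tbx21 also past the threshold on 24 UMIs. The scale matters here: the median of all genes lay at -0.04 (log2) under the main scaling and at 0.19 when only library totals were used, where 83.4% of called genes were higher against 46.7%. The 5 directions held under either scale.

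Gata3, which regulatory T cells also use, had 78.4, 123 and 156 CPM in the lowest, median and highest Foxp3 library, all above the highest CD4 library. Its log2 fold change was 0.68 ± 0.083 (SE, n = 8; edgeR adjusted p = 2.14e-08). Runx3 fell from a mean of 82.8 ± 11.9 to 58.2 ± 18.6 CPM (SD, n = 8; log2 fold change -0.74, edgeR adjusted p = 6.92e-07), being lower in 7 of 8 libraries. The exception was the active library, with 100 CPM in Foxp3 and 86.0 in CD4 cells. Id2 was lower in 8 of 8 libraries, at 90.2 ± 29.1 against 129 ± 28.3 CPM (SD, n = 8; log2 fold change -0.78, edgeR adjusted p = 0.000198). Both kept their call in the Xist and in the Y-linked libraries, Runx3 at -0.56 and -0.97, as did Gata3 at 0.86 and 0.47.

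Bcl6 stood at 1.78, 17.6 and 31.7 CPM in the lowest, median and highest Foxp3 library and was above the CD4 level in 7 of 8. Its log2 fold change was 0.91 ± 0.19 (n = 8; edgeR adjusted p = 0.000222). Tbx21 rose by 1.00 ± 0.39 (n = 8; edgeR adjusted p = 0.0428) and lost its call when any of 5 libraries was left out (active, onset, both of day 2 or day 3 vehicle; adjusted p from 0.0561 to 0.121), in the Xist or Y-linked libraries alone (0.154 and 0.272) and without the block (0.134). Eomes (1.10 ± 0.44; adjusted p = 0.0509) and Prdm1 (0.80 ± 0.36; adjusted p = 0.0838) did not pass. On library totals alone both passed, Eomes at 1.33 (adjusted p = 0.0182) and Prdm1 at 1.02 (0.0249), as they did with DESeq2 (adjusted p = 0.0398 and 0.0491). Eomes also passed in the Y-linked libraries (1.52, edgeR adjusted p = 0.0151) but not in the Xist ones (0.48, adjusted p = 0.699). Prdm1 passed in the Xist libraries (1.53, edgeR adjusted p = 0.00417), and the Y-linked ones gave -0.41. For Eomes the day 2 vehicle library held 29 of the 60 UMIs (37.5 CPM), the other 7 lying between 0 and 13.9 CPM. The highest count in a single Foxp3 cell was 20 Eomes UMIs. For Prdm1 the day 4 vehicle library stood apart at 51.7 CPM (29 UMIs), the other 7 lying between 5.34 and 22.6. Zbtb7b did not pass (0.08 ± 0.097; edgeR adjusted p = 0.57), and passed at 0.30 when library totals alone set the scale.

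Zbtb16 had no UMI in any Foxp3 library, which allows up to 3.04 to 6.37 CPM per library, so a difference from CD4 cells was not detectable at this depth. All 10 regulatory genes listed were higher in Foxp3 cells, among them Lrrc32, Il2ra and Ikzf2, and 9 of 10 naive and memory genes were lower, including Lef1 (342 against 843 CPM). Of 7 type 2 genes tested 6 were higher, such as the interleukin-33 receptor Il1rl1 (9.02 against 0.741 CPM, log2 fold change 3.49 ± 0.51) and the chemokine receptor Ccr8 (3.37 ± 0.33). Of 10 follicular helper genes tested 6 were higher and 2 lower, with Cxcr5 at a log2 fold change of 3.16 ± 0.27 and Pdcd1 at 44.2 against 7.17 CPM. The summed B cell markers were also higher in this class, at 225 to 463 CPM against 104 to 210 CPM in CD4 cells, and their part in these results was not tested.

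**Figure D2:**
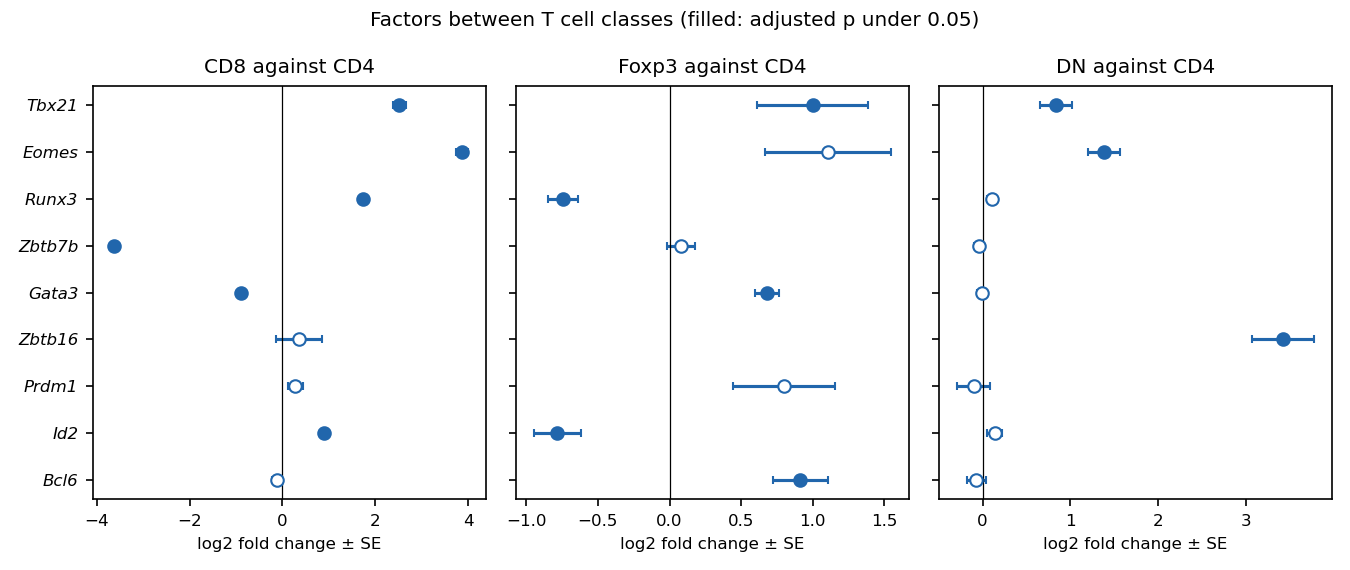
Log2 fold change ± SE (x axis) of each factor in CD8, Foxp3 and double-negative (DN) cells against CD4 cells, over 8 libraries, with filled points where the adjusted p was under 0.05. CD8 cells show shifts to either side, up to 3.87 for Eomes and down to -3.63 for Zbtb7b, while in DN cells only Zbtb16, Eomes and Tbx21 are filled; Zbtb16 is not drawn for Foxp3 cells, where it had no UMI.

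DN cells differed from CD4 cells in 3 factors: Zbtb16, Eomes and Tbx21 were higher in DN cells in 8 of 8 libraries. The fit called 1.33% of all genes here (1.03% higher and 0.304% lower in DN cells), against 40.5% between DN and CD8 cells (20.2% and 20.3%). Of the genes called against CD4 cells 77.2% were higher, and 66.3% when library totals alone set the scale. Zbtb16, the factor of innate-like T cells, had 0.919, 1.73 and 4.33 CPM in the lowest, median and highest DN library, and no CD4 library passed 0.459 CPM. On 159 UMIs in DN and 27 in CD4 cells the log2 fold change was 3.42 ± 0.36 (n = 8; edgeR adjusted p = 1.13e-07). Zbtb16 passed the filter on low counts through its DN sums, 5 to 38 UMIs per library against 0 to 11 in CD4 and 1 to 8 in CD8 cells. Without that filter the log2 fold change was also 3.42 (edgeR adjusted p = 2.32e-27). It stood as far above the CD8 level (3.07 ± 0.35; adjusted p = 1.86e-08). In the 4 Xist libraries alone it was 2.94 against CD4 cells, and in the Y-linked set it did not pass the filter on low counts.

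Eomes had 3.97, 9.98 and 20.9 CPM in the lowest, median and highest DN library, the active library being the highest (log2 fold change 1.38 ± 0.18 against CD4 cells, n = 8; edgeR adjusted p = 2.44e-06). Tbx21 had 1.31, 3.07 and 5.09 CPM (0.84 ± 0.18, n = 8; edgeR adjusted p = 0.00492), and lost its call without the day 2 PPCA library (0.77, adjusted p = 0.056) and in the 4 Xist (adjusted p = 0.101) or 4 Y-linked libraries (0.291), as well as without the block (0.963). Both stayed below every CD8 library, by -2.49 ± 0.13 for Eomes and -1.67 ± 0.14 for Tbx21 (log2, n = 8). The 6 other factors did not pass against CD4 cells. Their log2 differences lay between -0.10 (Prdm1) and 0.14 (Id2), with SEs of 0.049 to 0.19. Against CD8 cells Prdm1 did not pass (-0.38; edgeR adjusted p = 0.104). It passed in the Xist libraries alone (-0.70, 0.0193) and not in the Y-linked ones (-0.07, 0.823).

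The lineage pair in DN cells did not separate from the CD4 level: Zbtb7b had 24.2, 54.7 and 69.3 CPM in the lowest, median and highest library and Runx3 63.2, 90.2 and 105 CPM. Against CD8 cells Zbtb7b was higher (3.58 ± 0.076) and Runx3 lower (-1.63 ± 0.049), with no overlap. The order of levels was CD8 above DN and CD4, then Foxp3, for Runx3 and Id2, and CD8 at the bottom for Zbtb7b and Gata3, with DN and CD4 not separated beyond their spread in any of the 4.

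Of 11 innate-like and gamma-delta genes tested, 8 were higher in DN than in CD4 cells, with a median log2 fold change of 1.76 against 0.00 over all genes. They included the signalling chain Fcer1g (5.05 ± 0.31), Cxcr6 (32.9 against 14.3 CPM, 1.19 ± 0.16) and the gamma-chain constant genes Tcrg-C1 (2.62 ± 0.52), Tcrg-C2 (2.57 ± 0.23) and Tcrg-C4 (2.55 ± 0.25). These genes were not highest in DN cells as a group: against CD8 cells 5 of the 11 were higher, among them Fcer1g, and 5 lower, among them Cxcr6 (-2.38 ± 0.12), Tcrg-C1 (-1.16 ± 0.36), Tcrg-C2 (-2.21 ± 0.14) and Tcrg-C4 (-1.33 ± 0.17), with a median of -0.16. Of 6 type 17 genes tested 4 were higher than in CD4 cells, among them the interleukin-1 receptor Il1r1 (2.64 ± 0.39). Of 13 cytotoxic genes 7 were higher than in CD4 cells, such as Klrk1 (2.61 ± 0.21). Against CD8 cells all 13 were lower, Klrk1 among them, with a median log2 fold change of -2.34. Il21 (-2.15 ± 0.28) and Cd200 (-0.68 ± 0.14) of the follicular helper list were lower. The sort asked for TCRβ; the 4 gamma-delta markers summed to 13.9 to 46.3 CPM in DN, 7.36 to 17.8 in CD4 and 25.4 to 139.5 in CD8 cells. Markers of NK and innate lymphoid cells summed to 3.65 to 19.1 CPM in DN and at most 2.3 CPM in CD4 cells, with Gata2 at 0 in both. The part of such cells in the DN results was not tested.

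Which cells carried Zbtb16 was looked at directly. At full depth 99 of the 16628 DN cells had a Zbtb16 UMI, 3 to 26 per library, too few in most libraries for the planned test, so their UMIs were summed over the 8 libraries and are described without one. Intervals are exact Poisson 95% intervals and cover counting error only. The depth of the cells on each side was not equalised.

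**Figure D3:**
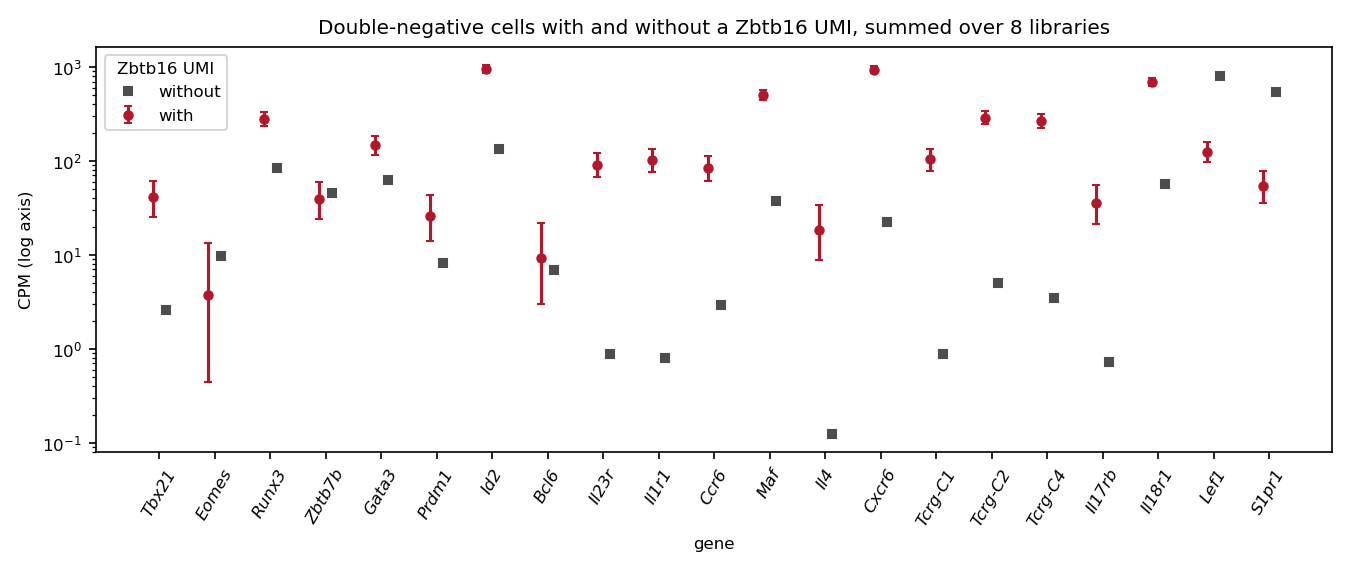
Level (y axis, CPM on a log scale) of 8 factors and 13 genes of the lists, picked after their values were seen, in the 99 double-negative cells with a Zbtb16 UMI (circles, exact Poisson 95% interval) and in those without (squares), summed over 8 libraries. Il23r, Il1r1, Cxcr6 and the gamma-chain genes stand far higher with Zbtb16, and Lef1 and S1pr1 lower.

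Several genes of the type 17 and innate-like lists, picked after their values were seen, stood higher in DN cells with a Zbtb16 UMI than in those without. The interleukin-23 receptor Il23r was at 91.0 CPM (67.3 to 120) against 0.879 in the other DN cells, and Il1r1 at 102 (76.9 to 133) against 0.795. Il1r1 was detected with Zbtb16 in all 8 libraries and Il23r in 7. Cxcr6, a receptor of tissue-resident lymphocytes, was at 938 CPM (858 to 1023) against 22.7. The gamma-chain gene Tcrg-C2 was at 290 (246 to 339) against 5.06, and the cytokine gene Il4 had 10 UMIs with Zbtb16 and 9 without. Markers of naive and circulating cells were lower: Lef1 at 124 against 799 and S1pr1 at 53.8 against 536 CPM.

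Among the other members, Id2 was at 952 CPM (872 to 1039) in DN cells with Zbtb16 and 135 without, Tbx21 at 40.8 (25.6 to 61.8) against 2.61, Runx3 at 280 (237 to 329) against 83.4, and Gata3 at 147 (116 to 183) against 62.6. Eomes had 2 UMIs with Zbtb16, or 3.71 CPM (0.45 to 13.4), against 9.73 without. Zbtb7b, at 39.0 (24.1 to 59.6) against 45.5, lay within the counting interval. Of Tbx21 and Eomes, both higher in the DN class as a whole, only Tbx21 had an interval above the value of the other DN cells. Eomes rests on 2 UMIs there, and a difference between these factors was not tested.

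Detection was then compared in cells thinned to 2000 UMIs, which left out 286 CD4, 302 CD8, 35 Foxp3 and 580 DN cells. At that depth Runx3 was seen in 14.4% of CD4 and 38.7% of CD8 cells (medians of 8 libraries), Zbtb7b in 9.74% and 0.681%, Gata3 in 11.96% and 6.43%, and Id2 in 17.1% and 27.7%. Eomes was seen in 0.545% and 8.01%, Tbx21 in 0.284% and 1.67%. Each of these 6 differences had the same sign in 8 of 8 libraries (exact sign-flip permutation test, two-sided, p = 0.00781, the smallest that 8 libraries allow; 0.0211 after adjustment over 27 comparisons). The same held for Gata3 and Id2 between Foxp3 and CD4 cells and for Eomes and Zbtb16 between DN and CD4 cells. The share with Eomes in Foxp3 cells was above that in CD4 cells in 3 libraries and below it in 5 (exact sign-flip permutation test, adjusted p = 0.593). Called on the sums but not on shares were Runx3 (lower in 6 of 8 libraries, adjusted p = 0.105), Bcl6 (higher in 6, 0.136) and Tbx21 (higher in 5, 0.141) in Foxp3 cells and Tbx21 in DN cells (higher in 6, 0.1125) (exact sign-flip permutation tests). Zbtb16 was seen in 51 of 16048 DN cells, 8 of 26055 CD4, 7 of 21340 CD8 and 0 of 1086 Foxp3 cells, the last allowing up to 0.276% of Foxp3 cells with a UMI at this depth, a limit on detection and not on expression. As a measure of free RNA, 49 cells outside the T cell set, with at least 2 UMIs of B cell genes and under 2 of the T cell genes (median 4022.5 UMIs before thinning), were read at the same depth. None had Gata3, Tbx21, Eomes, Prdm1 or Zbtb16, which allows a share of up to 6.12%, so the low shares of the last 4 cannot be set apart from free RNA by these cells. Nor can that of Gata3 in every CD8 library, where it ran from 4.57% to 9.41%. Runx3 was seen in 6 of them (12.2%, against a median of 14.4% in CD4 cells), Bcl6 in 6, Id2 in 5 and Zbtb7b in 2. B cells may express these themselves. Within the T cells, the share of Zbtb7b in CD8 cells and of Eomes in CD4 cells set an upper bound on what free RNA gave there. Without thinning the median shares of Runx3 were 29.9% and 69.5%.

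Detection of Runx3 and Zbtb7b in the same cell was set against what their shares alone give. In CD4 cells 333 held both, against 355 from the product of the shares, and in DN cells 204 against 196. In CD8 cells 40 held both against 60.3. Tbx21 and Eomes met more often in CD8 cells (73 against 35.5), as did Eomes and Prdm1 (125 against 45.0) and Prdm1 and Id2 (292 against 149). The opposed pair Prdm1 and Bcl6 met in 6 CD4 cells against 5.64 and in 9 CD8 cells against 7.17. These counts are over cells of all libraries and were not tested.

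To see which genes accompany a factor, thinned cells with at least 1 of its UMIs were set against cells of the same class and library without one (edgeR, library as block, 8 libraries). The planned comparisons for Tbx21 and Zbtb16 in CD4 cells and Zbtb16 in DN cells could not be fitted, because fewer than 3 libraries had 20 such cells. A missing UMI does not show that a cell lacks the transcript, nor a single UMI that the cell made it, so the split does not separate expressing from non-expressing cells. Without the library as a block every member's call with Runx3 or Gata3, that of Id2 with Prdm1, and those of Runx3, Gata3 and Prdm1 with Id2 were lost in CD4 cells, as were Runx3 with Eomes and both calls with Gata3 in CD8 cells. Without thinning, Prdm1 shrank from 1.02 to 0.59 with Runx3 and from 0.87 to 0.38 with Id2 in CD4 cells, and Runx3 with Id2 from 0.27 to 0.16. In CD8 cells Id2 with Gata3 shrank from 0.41 to 0.17 and Gata3 with Tbx21 from 0.88 to 0.57, and all 5 remained called. Unthinned, Runx3 was also called with Gata3 (0.12) and Prdm1 (0.49) and Eomes with Id2 (0.92) in CD4 cells. In CD8 cells Runx3 was called with Tbx21 (0.16), as were Bcl6 with Eomes (0.38), Eomes (0.15) and Prdm1 (0.47) with Gata3, and Gata3 with Prdm1 (0.60).

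In CD8 cells Tbx21, Eomes, Prdm1 and Id2 went together. Cells with a Tbx21 UMI had Prdm1 at 51.3 ± 23.2 CPM against 13.6 ± 6.57 (SD, n = 8; log2 fold change 1.69 ± 0.31), Eomes at 139 against 58.9 (1.02 ± 0.18), Gata3 at 79.5 against 36.9 (0.88 ± 0.23) and Id2 at 504 against 254 (0.74 ± 0.10). These passed, in a comparison that called 8.12% of genes (3.19% higher, 4.92% lower). The Gata3 call was lost without the day 2 vehicle library (0.68, adjusted p = 0.0969), and those of Eomes (0.46), Gata3 (0.22) and Prdm1 (1.36) were lost in the 4 Xist libraries, while all 4 held in the Y-linked ones. Runx3, already common in CD8 cells, did not pass (0.29 ± 0.11; edgeR adjusted p = 0.0803). It did at 0.52 on library totals alone and at 0.39 with DESeq2 (adjusted p = 0.0122). The median over all genes was -0.09 under the main scaling and 0.13 on library totals, with 39.3% and 72.0% of called genes higher.

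Cells with an Eomes UMI, where 16.3% of genes were called (8.53% higher, 7.75% lower), also had Prdm1 at 39.2 ± 18.0 against 11.8 ± 5.83 CPM (SD, n = 8; 1.65 ± 0.17), Tbx21 higher by 1.16 ± 0.23 (log2), Id2 at 398 against 244 (0.60 ± 0.060) and Runx3 at 333 against 268 (0.22 ± 0.055). Without thinning, Id2 (0.16, edgeR adjusted p = 0.116) and Runx3 (0.08, 0.0597) were not called. Tbx21 did not pass in the Xist libraries (0.74, adjusted p = 0.219), nor Runx3 in the Y-linked ones (0.20, adjusted p = 0.117). Gata3 did not pass (0.03 ± 0.13; adjusted p = 0.921). Of the called genes 52.4% were higher, and 75.2% on library totals.

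Cells with a Prdm1 UMI, where 16.5% of genes were called (7.26% higher, 9.26% lower), had Id2 at 759 ± 267 against 247 ± 44.4 CPM (SD, n = 8; 1.28 ± 0.085), without overlap between the sides. Tbx21 stood at 35.9 against 9.45 CPM (1.71 ± 0.32), also without overlap, and Eomes at 177 against 57.6 (1.37 ± 0.14). All 3 passed in either library set. Runx3 (0.02 ± 0.10) and Gata3 (0.44 ± 0.22) did not pass, moving to 0.28 and 0.68 with a call on library totals, where the median of all genes was 0.19 in place of -0.07 and 77.2% in place of 43.9% of called genes were higher.

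The programs around these 3 factors overlapped in part. Of 10 type 1 genes tested, 9 were higher with Tbx21, all 10 with Eomes and 9 with Prdm1. Ifng, the type 1 cytokine, stood at 374 against 77.6 CPM with Tbx21. Naive and memory genes were lower: 9 of 10 with Tbx21, 9 with Eomes, and all 10 with Prdm1, where the memory factor Tcf7 fell from 337 to 132 CPM. Pdcd1, an inhibitory receptor, was higher with each, at 66.9 against 11.4 CPM with Prdm1. Itgae went either way: it was lower with Eomes (20.8 against 61.5 CPM, -1.67 ± 0.15, lower in 8 of 8 libraries) and higher with Tbx21 (109 against 56.8 CPM, 0.71 ± 0.19) and with Prdm1 (108 against 56.5 CPM, 0.62 ± 0.17). These comparisons share cells, and the difference between them was not tested.

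CD8 cells with a Gata3 UMI, where 3.74% of genes were called (1.82% higher, 1.92% lower), had higher Id2 (346 against 252 CPM, 0.41 ± 0.062) and Tbx21 (18.5 against 9.49 CPM, 0.91 ± 0.25), the latter losing its call without day 2 vehicle, day 3 vehicle or day 3 PPCA and in the Xist libraries (0.26), and with DESeq2 (0.97, adjusted p = 0.0552). Of 10 type 1 genes tested 8 were higher. Nrp1, a surface receptor of regulatory and activated cells, stood at 21.5 against 6.99 CPM (1.54 ± 0.25) and the collagen-binding integrin Itga1 at 95.7 against 43.3 (1.11 ± 0.11). Eomes (0.03 ± 0.12) and Runx3 (0.01 ± 0.059) did not pass. Prdm1 missed the threshold (0.66, edgeR adjusted p = 0.0587) and passed on library totals (0.72, 0.0277), where 71.6% of called genes were higher in place of 48.7%.

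In CD4 cells 4 members passed with Id2, in the CD4 split with the most cells. Cells with an Id2 UMI, where 6.26% of genes were called (3.81% higher, 2.44% lower), had Tbx21 at 5.62 ± 2.30 against 1.11 ± 1.08 CPM (SD, n = 8; 2.26 ± 0.34), Prdm1 at 15.1 against 7.89 (0.87 ± 0.16), Runx3 at 97.8 against 78.2 (0.27 ± 0.060) and Gata3 at 82.3 against 65.5 (0.25 ± 0.067). Gata3 was lost without any of day 2 vehicle, day 2 PPCA or day 4 PPCA (0.19 to 0.22) and in the Xist libraries (0.16), and with DESeq2 (0.26, adjusted p = 0.0695), and Runx3 in either library set (0.25 and 0.28). Tbx21 passed the filter on low counts through the cells with Id2, where it was higher. It was tested in no other CD4 split and not in the Xist libraries alone, while the Y-linked ones gave 1.92 (edgeR adjusted p = 0.00288). Of 10 type 1 genes tested 9 were higher, of 8 follicular helper genes 6 were higher and 1 lower, and of 10 naive and memory genes 2 were higher and 6 lower. Cxcr6 stood at 58.4 against 6.89 CPM and the follicular cytokine Il21 at 10.2 against 3.29. Of the called genes 61.0% were higher, and 79.1% on library totals.

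CD4 cells with a Runx3 UMI, where 1.53% of genes were called (0.768% higher, 0.757% lower), had higher Eomes (7.77 against 2.95 CPM, 1.37 ± 0.28), Prdm1 (16.2 against 8.09, 1.02 ± 0.17) and Id2 (162 against 125, 0.35 ± 0.053). In the Y-linked libraries only Id2 passed (0.31), Eomes standing at 1.27 and Prdm1 at 0.72. Zbtb7b, its opponent, was not called (-0.10 ± 0.083; adjusted p = 0.827). Of 9 type 1 genes tested 8 were higher, led by Ccl5 (448 against 106 CPM, 2.09 ± 0.064). The helper gene Izumo1r fell from 70.0 to 55.9 CPM. Of the called genes 50.4% were higher, and 65.5% on library totals.

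CD4 cells with a Prdm1 UMI, where 3.09% of genes were called (1.09% higher, 1.99% lower), had Eomes at 18.9 ± 20.6 against 3.32 ± 1.01 CPM (SD, n = 8; 2.51 ± 0.49, higher in 5 of 8 libraries) and Id2 at 241 ± 56.8 against 128 ± 28.5 (0.74 ± 0.13, 8 of 8). Eomes passed in neither library set (adjusted p = 0.0795 and 0.0574), and Id2 not in the Y-linked one (0.50, adjusted p = 0.209). Runx3 missed the threshold (0.52, edgeR adjusted p = 0.0566) and passed on library totals (0.67, 0.00464) and with DESeq2 (0.63, adjusted p = 0.0267). Maf was at 276 against 42.2 CPM and Pdcd1 at 43.8 against 6.44, while 7 of 10 naive and memory genes were lower. The median of all genes was -0.10, and 0.05 on library totals, with 35.4% and 78.7% of called genes higher.

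CD4 cells with a Gata3 UMI, where 3.26% of genes were called (1.83% higher, 1.42% lower), had higher Id2 (168 against 125 CPM, 0.36 ± 0.056), and no other member passed. The lists that moved were not confined to type 2 genes: 8 of 9 type 1 genes, 5 of 8 follicular helper genes and both type 17 genes tested (Rora and Ahr) were higher, as was Maf, 1 of the 2 type 2 genes tested. Ifng stood at 29.8 against 13.3 CPM and Il21 at 8.23 against 4.11. Of the type 2 cytokines, Il4, Il5 and Il13 were too scarce to be tested. Of the called genes 56.2% were higher, and 76.4% on library totals.

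CD4 cells with a Bcl6 UMI, where 2.13% of genes were called (0.182% higher, 1.95% lower), showed no member past the threshold. The calls turned on the scale: 172 of 188 were lower with a median over all genes of -0.13, whereas on library totals 60 were called, 63.3% of them higher, at a median of 0.05. Pdcd1, characteristic of follicular helper cells, stood at 34.3 against 6.72 CPM (2.02 ± 0.41), Maf at 103 against 46.0 (0.85 ± 0.21), the folate receptor Izumo1r at 127 against 67.0 (0.71 ± 0.18) and Id3, an inhibitor of E proteins, at 81.4 against 40.7 (0.90 ± 0.22). Pdcd1 was the only one of 7 follicular helper genes tested that was called. Prdm1 was at 8.84 against 9.25 CPM (-0.08 ± 0.60), an error too wide to show whether the opposed pair excluded each other.

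**Figure D4:**
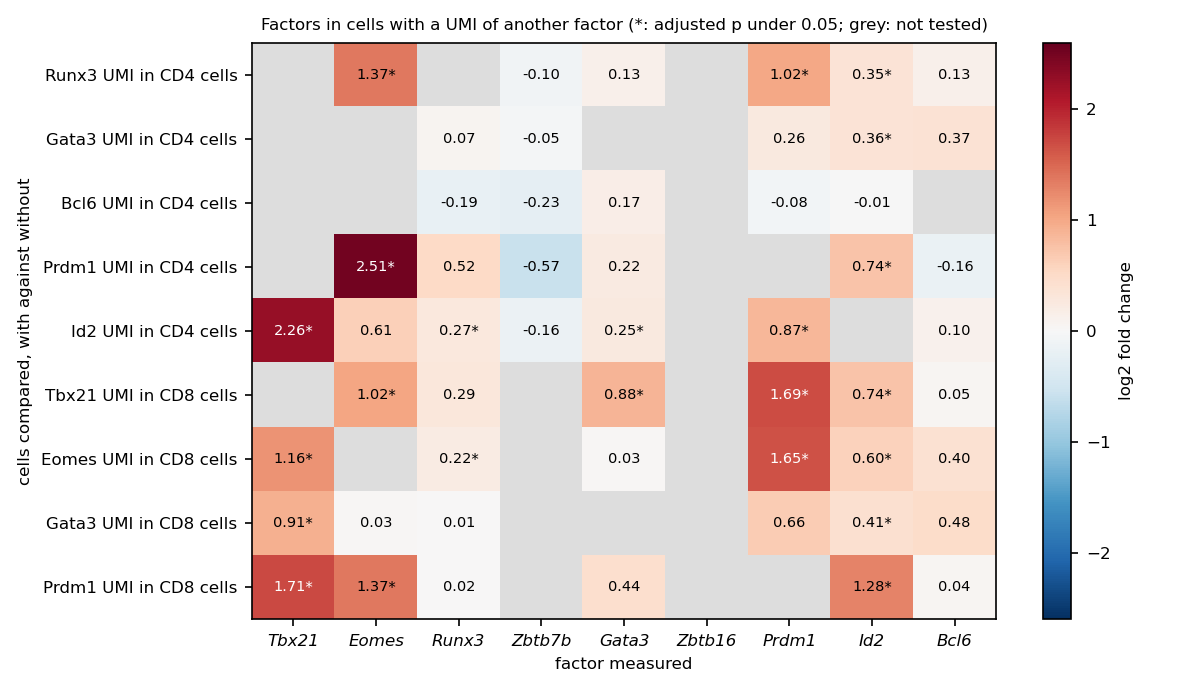
Log2 fold change of each factor (columns) in thinned cells with at least 1 UMI of another factor against cells without (rows), with an asterisk where the adjusted p was under 0.05 and grey where the gene chose the cells or was not tested. Id2 is marked in every row except those of Bcl6 and of Id2 itself, and the highest values are Eomes with Prdm1 (2.51) and Tbx21 with Id2 (2.26) in CD4 cells. In the CD4 rows Tbx21 was tested with Id2 only, where it passed the filter on low counts through its higher side.

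For Tbx21 in CD4 cells the 185 cells with a UMI at full depth were summed over libraries, without a test. Id2 was at 579 CPM (532 to 628) against 126, Eomes at 32.5 (22.3 to 45.9) against 3.68, Prdm1 at 42.7 (30.8 to 57.7) against 8.15, and Cxcr3, the receptor that T-bet is known to induce, at 199 (172 to 229) against 13.3. Maf, at 305 (271 to 342) against 38.4, and Il21, at 49.8 (36.9 to 65.9) against 4.21, were high as well. Zbtb7b was at 47.8 (35.1 to 63.5) against 50.8.

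Across the 32 class sums, each centred on its library, the gene most like Zbtb7b was Cd9 (Pearson r = 0.986), followed by Tnfrsf25 (0.977). For Runx3 it was Ly6a (0.981), for Gata3 Maf (0.977), for Eomes Ccl5 (0.936), for Id2 Gzmk (0.933) and for Tbx21 Pde2a (0.911), with Eomes the third (0.908). For Bcl6 it was 3830406C13Rik (0.895), for Prdm1 Tmem135 (0.817) and for Zbtb16 AY036118 (0.796). The candidates were 7436 genes averaging at least 10 CPM, and the sums share libraries and classes, so these values only describe.

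The authors' deposited table of cluster markers lists 7 of the 9 factors, without Zbtb16 and Bcl6. In the authors' deposited table the cluster CD8 TRM TEM holds Id2 (log2 fold change 1.65), Eomes (1.36), Runx3 (1.02), Prdm1 (0.71) and Tbx21 (0.44). Runx3 is also listed for CD8 TCM (0.83), Zbtb7b for CD4 Naive (0.27), Gata3 for CD4 Th17 (0.70) and CD4 Treg (0.58), and Id2 for CD4 Th17 (0.77) and CD4 Th0 (0.25) in the authors' deposited table.

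PPCA was compared with vehicle over 3 harvest days, 1 library of each arm per day, with the day as a block. No gene passed in T cells as a whole, CD4, CD8 or DN cells (0% of 10836 to 13199 genes tested; edgeR adjusted p). At an unadjusted p under 0.05 there were 1055, 777, 908 and 811 genes, and DESeq2 called 69, 37, 39 and 32. In simulated data of the same size edgeR recovered 81.2% of 2-fold changes in CD4 and 77.7% in CD8 cells. The simulated libraries had no day effects, and the changed genes were drawn from all genes tested. These rates may therefore not hold for scarce factors such as Tbx21 and Prdm1. None of the 9 factors passed in any class, and in bulk sums of this kind fewer cells of a subset and less RNA per cell cannot be told apart.

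Prdm1 in CD8 cells came nearest. Vehicle libraries had 10.5, 3.53 and 8.21 CPM on days 2, 3 and 4, and PPCA libraries 15.8, 6.45 and 19.0 CPM. PPCA was thus higher on each day, by 0.59, 0.87 and 1.21 (log2), though the arms overlapped. The log2 fold change was 0.82 ± 0.17 (SE, n = 3; edgeR unadjusted p = 0.00135, adjusted p = 0.378). With sex as a further factor it was 0.81 and passed (edgeR adjusted p = 0.00333), and with no filter on low counts 0.83 (adjusted p = 0.000722). The fit with sex leaves almost no residual degrees of freedom. Its p therefore leans on the spread estimated across genes and cannot decide the question. DESeq2 gave an adjusted p of 0.236. In CD4 cells Prdm1 was higher with PPCA on 2 of 3 days (log2 fold change 0.42 ± 0.23; edgeR adjusted p = 0.758).

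Eomes had log2 ratios of opposite sign in the CD4 and CD8 classes without passing in either (edgeR adjusted p = 0.752 and 0.643). In CD4 cells vehicle libraries had 5.35, 2.89 and 2.04 CPM and PPCA libraries 6.37, 3.55 and 5.49 CPM, higher on each day. In CD8 cells the values were 95.8, 45.5 and 43.6 CPM with vehicle and 75.2, 44.4 and 43.3 CPM with PPCA, lower on each day, with log2 ratios of -0.03 and -0.01 on the last 2. The test of the difference gave -0.80 ± 0.18 (CD8 minus CD4; edgeR unadjusted p = 0.000725, adjusted p = 0.427), in a fit that called 0.00868% of genes. With sex as a further factor it was -0.84 (edgeR adjusted p = 0.0416), again in a fit with almost no residual degrees of freedom. Tbx21 gave -0.61 ± 0.28 in the same test (adjusted p = 0.957).

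Zbtb16 in DN cells had 0.919, 1.70 and 1.72 CPM with vehicle and 3.88, 1.75 and 2.86 CPM with PPCA on days 2, 3 and 4. The arms lay apart only by 1.75 (day 3 PPCA) against 1.72 CPM (day 4 vehicle), within counting error. Day 3 differed by 0.04 (log2) and the sums rest on 5 to 38 UMIs (log2 fold change 0.79 ± 0.41; edgeR adjusted p = 0.711). Bcl6 in CD4 cells was higher with PPCA on each day (11.2, 8.45 and 6.90 against 9.77, 5.61 and 5.71 CPM; 0.27 ± 0.15, adjusted p = 0.765). So was Runx3 in DN cells (105, 105 and 82.9 against 98.5, 74.2 and 63.2 CPM; 0.25 ± 0.10, edgeR adjusted p = 0.653). Zbtb7b in CD4 cells was lower on days 2 and 4 and higher on day 3 (57.2, 61.7 and 26.0 against 74.2, 45.1 and 39.9 CPM; -0.26 ± 0.17, edgeR adjusted p = 0.799).

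Of the pathway lists none had a gene that passed. Of 11 type 1 genes tested, all 11 had a positive log2 fold change in CD4 cells and all 11 in CD8 cells, with medians of 0.59 and 0.31 against 0.00 over all genes, of which 5679 of 11443 and 5827 of 11577 were positive. In DN cells 8 of the 11 were positive. The type 1 list did not stand alone: in CD4 cells 9 of 9 regulatory, 9 of 10 follicular helper and 9 of 11 cytotoxic genes were positive too. Of 10 naive and memory genes, 2 were positive in each, with medians of -0.09 and -0.12. These are descriptions of the same 6 libraries. Leaving out day 4 raised the calls to 14 in CD4, 209 in CD8 and 212 in DN cells (edgeR, 4 libraries). Those fits also have almost no residual degrees of freedom.

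The active and onset libraries, 1 each, allow no test across mice, and their intervals cover counting error only. In CD8 cells Prdm1 stood at 6.05 CPM in the active and 17.7 CPM in the onset library (118 and 195 UMIs), a log2 ratio of -1.55 (-1.89 to -1.21), and Id2 at 206 and 339 CPM (-0.72, -0.78 to -0.65). Zbtb7b was also lower, at 3.18 against 5.89 CPM (-0.89, -1.42 to -0.36), while Eomes was near equal at 55.3 and 56.7 CPM. Other classes differed from this: Id2 had a log2 ratio of 0.27 in DN cells (0.13 to 0.40), 0.60 in Foxp3 cells (0.05 to 1.15) and -0.04 in CD4 cells (-0.12 to 0.04), and Prdm1 -0.67 in DN (-1.29 to -0.08) and -0.03 in CD4 cells (-0.37 to 0.31). In CD8 cells Prdm1, Id2 and Zbtb7b were past 1.5-fold. In this class 5.93% of the genes with at least 10 CPM in either library were that far apart (2.16% higher and 3.77% lower in the active library). Of scarcer genes such as Zbtb7b, whose higher library stood between 1 and 10 CPM, 30.5% were (15.2% higher and 15.3% lower).

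In CD4 and DN cells Eomes was higher in the active library. It stood at 5.43 against 2.47 CPM in CD4 cells (log2 1.14, 0.65 to 1.63) and at 20.9 against 6.16 CPM in DN cells (1.76, 1.29 to 2.24). Tbx21 stood at 1.64 against 0.712 CPM in CD4 cells (1.20, 0.29 to 2.16, on 29 and 17 UMIs), while in DN cells, on 14 and 13 UMIs, its interval covered no difference (1.07, -0.13 to 2.28). Zbtb16 in DN cells stood at 4.33 against 1.01 CPM (2.10, 0.96 to 3.34, on 22 and 10 UMIs). Of genes with at least 10 CPM in either library, 4.17% were at least 1.5-fold apart in CD4 cells (2.76% higher, 1.41% lower) and 6.68% in DN cells (4.62% higher, 2.06% lower). Of genes between 1 and 10 CPM, which include Eomes and Tbx21 in CD4 and Tbx21 and Zbtb16 in DN cells, 25.7% were in CD4 (17.3% higher, 8.38% lower) and 40.3% in DN cells (28.3% higher, 12% lower). Runx3 in CD4 (86.0 and 88.9 CPM) and DN cells (90.6 and 89.8 CPM) and Gata3 in DN cells (70.1 and 72.8 CPM) differed by less than their counting intervals.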

How the data were processed

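T cells of 8 libraries (1 active, 1 onset, 3 vehicle, 3 PPCA) were analysed. The authors deposited raw UMI counts per gene and cell, made with Cell Ranger 6.1.2 per the submitters' processing notes and Cell Ranger 6.0.0 per the file headers; Seurat is also named there. The labels name a 3' version 2 kit. Genome build, aligner settings and strand were not given in the sources used here. Per cluster, the authors' deposited marker table holds p-values and log2 fold changes, of which only the member rows are quoted.

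Kept cells had at least 500 genes, under 10% mitochondrial UMIs, at most 1 UMI over Cd79a, Cd79b, Ms4a1, Lyz2, C1qa and Csf1r, and were not among the highest Scrublet scores (scanpy 1.11.5; 395 to 1379 barcodes removed per library). Of the 70750 kept cells 70138 were T cells. Counts were summed per library and class, since cells are not replicates. CPM are counts per 1000000 UMIs of the class. Tests used edgeR 4.0.16 (R 4.3.3; quasi-likelihood, TMM, filterByExpr, Benjamini-Hochberg threshold 0.05): library plus class, day plus treatment, their interaction, and, after thinning to 2000 UMIs, cells with against without a member's UMI (at least 20 cells a side). SE is the fold change over the root of F. The class genes Cd4, Cd8a, Cd8b1 and Foxp3 are no results.

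Same-day vehicle and PPCA libraries deviated together: correlations on days 2, 3 and 4 were 0.37, 0.43 and 0.54 in T cells, and over 0.1 in every class, so the day is a block. On simulated 2-fold changes edgeR recovered 99.0% between CD8 and CD4 cells and 48.2% in the Tbx21 comparison of CD8 cells. The simulations held no effects of library or day on expression. The members and all lists were chosen with earlier results of these data known. Named genes are the members, list genes past the threshold and, in the class and UMI comparisons, the 5 highest and 5 lowest called genes that moved 1 way in every library at 20 CPM or more; genes in the sums without a test were picked after seeing values. The no-scaling alternative and the reading of cells with B cell markers (same filters, doublets not removed) were added after seeing the data. Shares of cells rest on counts, and intervals cover counting error only.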

Additional observations from a re-analysis of the deposited data

How the results depend on the processing

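All counts here are genes called by edgeR at an adjusted p of 0.05 unless DESeq2 is named, and the cause of each change was not tested. The 6 calls between CD8 and CD4 cells kept their direction and their call under every alternative run. Without the replicate block (library or day) calls fell from 5354 to 1924 between CD8 and CD4 cells, from 4800 to 1731 between DN and CD8 cells, and from 158 to 61 between DN and CD4 cells. In the comparisons of cells with and without a UMI, dropping the block took Runx3 in CD4 cells from 139 to 7, Gata3 from 297 to 1, Bcl6 from 188 to 3, Prdm1 from 274 to 33 and Id2 from 579 to 59, and in CD8 cells Tbx21 from 671 to 426, Eomes from 1361 to 506 and Gata3 from 314 to 1.

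Without thinning, these comparisons called 601, 584, 415, 465 and 1154 genes for Runx3, Gata3, Bcl6, Prdm1 and Id2 in CD4 cells, and 1598, 2170, 774 and 2864 for Tbx21, Eomes, Gata3 and Prdm1 (main count 1388) in CD8 cells. Without thinning, 2 differences in share between DN and CD4 cells also turned from positive to negative: Runx3 from 0.293 to -1.70 percentage points and Gata3 from 0.439 to -2.17. DESeq2 called 82, 58, 124 and 370 for Runx3, Bcl6, Prdm1 and Id2 in CD4 cells and 205 for Gata3 in CD8 cells. DESeq2 size factors in edgeR gave 55 for Bcl6 and 181 for Prdm1 in CD4 cells, and library totals alone gave 60 for Bcl6. With no filter on low counts the calls were 289 for Runx3 and 441 for Prdm1 in CD4 cells, and 387 between DN and CD4 cells.

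The 4 Xist libraries alone gave 2455 calls between Foxp3 and CD4 cells (main 3937), 77 between DN and CD4 cells, 111 for Gata3, 105 for Bcl6, 155 for Prdm1 and 299 for Id2 in CD4 cells, and 340, 829, 178 and 888 for Tbx21, Eomes, Gata3 and Prdm1 in CD8 cells. The 4 Y-linked libraries gave 91 between DN and CD4 cells, 32 for Runx3, 9 for Bcl6, 160 for Prdm1 and 341 for Id2 in CD4 cells, and 364, 756, 156 and 729 for Tbx21, Eomes, Gata3 and Prdm1 in CD8 cells. These sets hold fewer libraries.

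For PPCA, where no gene was called, DESeq2 called 69, 37, 39 and 32 genes in T, CD4, CD8 and DN cells, no low-count filter 158, 131, 161 and 217, and sex as a factor 81, 102, 223 and 350. Library totals alone gave 3 in CD8 and 2 in DN cells. The difference in PPCA effect between CD8 and CD4 cells, with 1 gene called, had 2 with DESeq2 size factors, 3 on library totals, 70 without the low-count filter, 2 with a looser cell filter, 20 with a stricter gate and 25 with sex as a factor.

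Leaving out 1 library at a time, or both of 1 day for PPCA, gave 4960 to 5141 calls between CD8 and CD4 cells, 3518 to 3787 between Foxp3 and CD4, 115 to 171 between DN and CD4 and 4414 to 4625 between DN and CD8. It gave 107 to 131 for Runx3, 242 to 303 for Gata3, 141 to 181 for Bcl6, 198 to 308 for Prdm1 and 492 to 623 for Id2 in CD4 cells, and 568 to 688 for Tbx21, 1125 to 1314 for Eomes, 253 to 304 for Gata3 and 1212 to 1330 for Prdm1 in CD8 cells. PPCA gave 0 to 60 in T cells, 0 to 14 in CD4, 0 to 209 in CD8 and 1 to 212 in DN cells, and 3 to 41 for the difference between CD8 and CD4. The PPCA fits with sex as a factor, and those without a day, left almost no residual degrees of freedom.

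Depth limits Zbtb16 and, in Foxp3 cells, Tbx21, Eomes, Prdm1 and Bcl6, each on fewer than 160 UMIs in a class.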
